A study of Mus musculus with 8 samples.

Results

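The 10 genes described here mark the passage of a bone-forming osteoblast into an osteocyte, the cell that lies buried in mineralised matrix. They are Pdpn, Irx3, Irx5, Ptprz1, Kcnk2, Ackr3, Fbln7, Cd44, Cttnbp2 and Mpped2. The set takes in early and mature osteocyte markers and leaves out the SIBLING matrix phosphoproteins and the secreted Wnt antagonists, which are counted beside it below. Members were found by gene symbol, and all 10 had a row among the 21154 genes of the table. All 10 also passed the filter on low counts, which kept 15373 genes.

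An osteocyte forms when an osteoblast on the bone surface stops secreting matrix at its former rate, becomes enclosed and grows long dendrites through canals to its neighbours. Podoplanin, encoded by Pdpn, is an early sign of that change, whereas sclerostin, encoded by Sost, appears late. Osteocytes sense load and signal to osteoblasts and osteoclasts through these dendrites.

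The libraries came from osteoblasts of female Col2.3-GFP mice, in which a fragment of the Col1a1 promoter drives green fluorescent protein in osteoblasts and osteocytes alike. Mice aged 8 to 10 weeks received 4 intravenous injections at intervals of 1 week, of doxorubicin at 5 mg/kg (DOX) or of phosphate-buffered saline (PBS), and were killed 8 weeks after treatment. GFP-positive cells were sorted from enzyme digests of marrow-free bone chips, so cells still locked in mineral would not be sampled. Whether a library holds cells of 1 mouse or of a pool was not stated, so p-values measure the spread between libraries. There were 3 PBS libraries and 5 DOX libraries. The labels name 2 batches. PBS replicate 1 shared batch 1 with DOX replicates 1 and 2, and the remaining 5 libraries formed batch 2. DOX replicate 1 was titled as doxorubicin but tagged as PBS for treatment, so each result rests on that title, and values with it left out or counted as PBS are given where they matter.

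Sequencing depth ran from 39419027 to 44299591 counts per library. Col1a1 stood between 82416 and 271940 CPM, counts scaled for library size, and the osteocalcin gene Bglap between 13200 and 24514 CPM. The cells were sorted by a reporter under a Col1a1 promoter fragment that marks osteocytes too, so these levels do not test the osteoblast label. A pair of batch 1 libraries stood apart. Type I collagen genes took 19.1% of counts in PBS replicate 1 and 23.2% in DOX replicate 1, against 26.0% to 39.5% in the other 6, and haemoglobin genes took 0.0167% and 0.0120%, against at most 0.00283%. In sorted cells of this kind, fewer cells of a type and less RNA per cell cannot be told apart.

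Promoter sequences from RefSeq (GRCm38.p6) matched 9 of the 10 members, with 14 annotated starts. The build differs from the GRCm39 build named for the counts, so the coordinates below serve only to place the sequences. Each window holds the 250 bases before a start. Both strands were searched for the core of the RUNX motif (TGTGGT), which the osteoblast factor RUNX2 can bind, for a TATA box (TATAAA) and for a GC box (GGGCGG), and no match overlapped another in the windows shown. Windows of 3 members are shown because their levels ran differently across libraries: Ackr3 was near its highest and Pdpn at its lowest in PBS replicate 1, and Ptprz1 was the member with the most reads. Capitals mark the motif matches on either strand.
Ackr3, chr1:90203730-90203979, plus strand: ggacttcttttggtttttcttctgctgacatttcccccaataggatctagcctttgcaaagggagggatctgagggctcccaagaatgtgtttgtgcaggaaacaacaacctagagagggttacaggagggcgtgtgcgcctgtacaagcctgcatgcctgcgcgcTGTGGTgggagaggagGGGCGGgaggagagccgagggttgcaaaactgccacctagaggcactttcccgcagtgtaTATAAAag
Ptprz1, chr6:22875252-22875501, plus strand: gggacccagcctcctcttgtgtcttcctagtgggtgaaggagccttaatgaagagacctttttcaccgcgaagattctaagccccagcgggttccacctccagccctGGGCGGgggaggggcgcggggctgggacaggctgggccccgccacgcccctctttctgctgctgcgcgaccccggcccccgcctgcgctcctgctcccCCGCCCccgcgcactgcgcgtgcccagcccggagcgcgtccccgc
Pdpn, chr4:143299565-143299814, minus strand: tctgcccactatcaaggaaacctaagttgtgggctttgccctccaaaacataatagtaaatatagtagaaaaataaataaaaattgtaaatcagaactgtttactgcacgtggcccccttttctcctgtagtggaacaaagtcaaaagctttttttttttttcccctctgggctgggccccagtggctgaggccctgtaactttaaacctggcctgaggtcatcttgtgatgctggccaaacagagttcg
The Ackr3 window held all 3 motifs and was the only 1 of the 14 with a RUNX core or a TATA box. Ptprz1 had 2 GC boxes. Pdpn had none of the 3 motifs, and its window was 43.2% G and C, against a median of 52.4% over all windows. Among 32817 promoter windows of the same length, 14.0% held the RUNX core, 12.4% the TATA box and 32.7% the GC box. GC boxes lay before 7 of the 14 member starts.

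Per length of exon, Irx5, Ptprz1, Cd44 and Pdpn had the highest mean levels and Cttnbp2 by far the lowest. Levels here are CPM per kilobase of exon, using the union of exons in GENCODE M21 rather than the annotation behind the counts, as mean ± SD over 8 libraries. Irx5, a homeobox transcription factor, led with 19.3 ± 4.75. Ptprz1, a receptor tyrosine phosphatase, stood at 17.8 ± 3.60, Cd44, a hyaluronan receptor, at 17.4 ± 1.88, and Pdpn at 14.2 ± 4.56. The first 3 did not differ beyond their spread: Irx5 lay above Ptprz1 in 4 of 8 libraries and Ptprz1 above Cd44 in 5 of 8. Cd44 lay above Pdpn in 7 of 8. Ackr3, a scavenging chemokine receptor, followed at 9.27 ± 2.68. It was below Cd44 in all 8 libraries and below Pdpn in 7 of 8, with a mean log2 ratio of Pdpn to Ackr3 of 0.58 ± 0.85 (SD), so that pair did not differ beyond its spread. In PBS replicate 1, Pdpn stood at 5.76, below Ackr3 at 12.8 and Kcnk2 at 7.39. Kcnk2, a stretch-gated potassium channel, stood at 5.12 ± 1.79, Mpped2, a metallophosphoesterase, at 4.89 ± 1.25, Irx3 at 3.46 ± 0.802 and Fbln7, a fibulin of the extracellular matrix, at 3.29 ± 0.960. Kcnk2 exceeded Mpped2 in 4 of 8 libraries, and Irx3 exceeded Fbln7 in 5 of 8, so neither pair could be ordered. Cttnbp2, which encodes a cortactin-binding protein, reached 0.0550 ± 0.0649 and lay below every other member in every library.

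**Figure D1:**
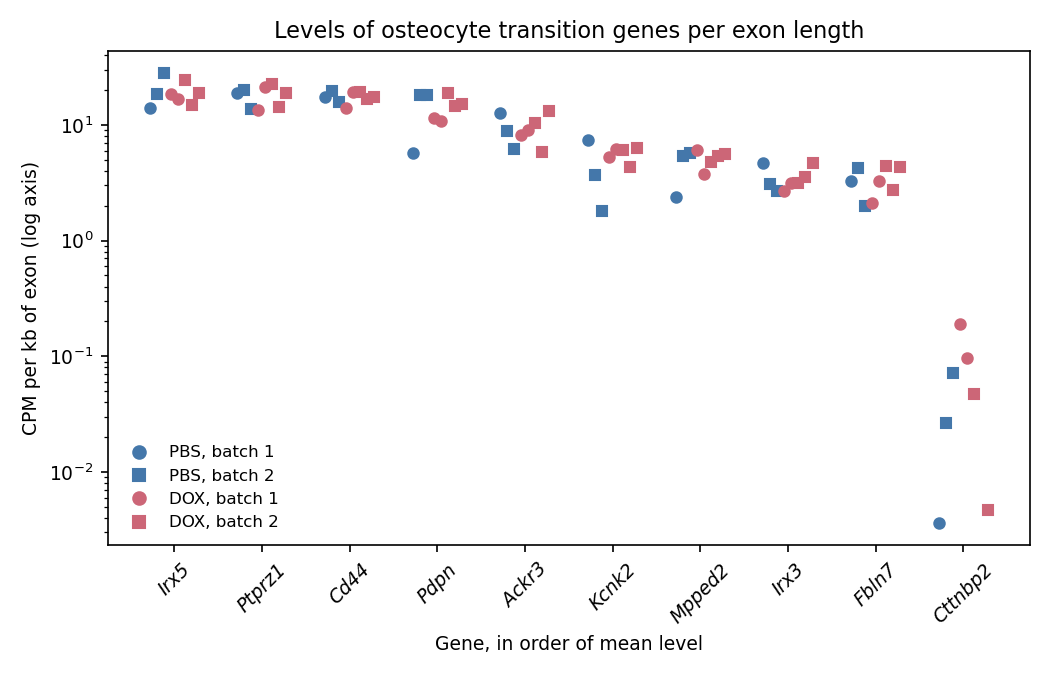
Level of each member in each of the 8 libraries, as CPM per kilobase of exon on a log axis, with colour for treatment group and shape for batch. Irx5, Ptprz1, Cd44 and Pdpn overlap at the top, and Cttnbp2 lies far below the rest; its DOX replicate 4 value is 0 and is not drawn.

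No member passed the test between DOX and PBS. EdgeR's quasi-likelihood test with batch and group as terms called 0 of 10 members at an adjusted p under 0.05, as it did for 0% of the 15373 genes tested. At an unadjusted p under 0.05 it listed 0 of 10 members, against 3.71% of all genes. Limma-voom called 0 members and listed 1, Kcnk2, at an unadjusted p under 0.05, against 10.2% of all genes. DESeq2 called 0 members, against 0.117% of these genes, and listed 0 at an unadjusted p under 0.05, against 4.79%. For no member did the 5 DOX libraries lie wholly above or below the 3 PBS libraries, a separation seen for 2.43% of all genes. In the fit, 6 members had a positive and 4 a negative log2 fold change, with a median of 0.04 over the members and 0.02 over all genes tested.

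**Figure D2:**
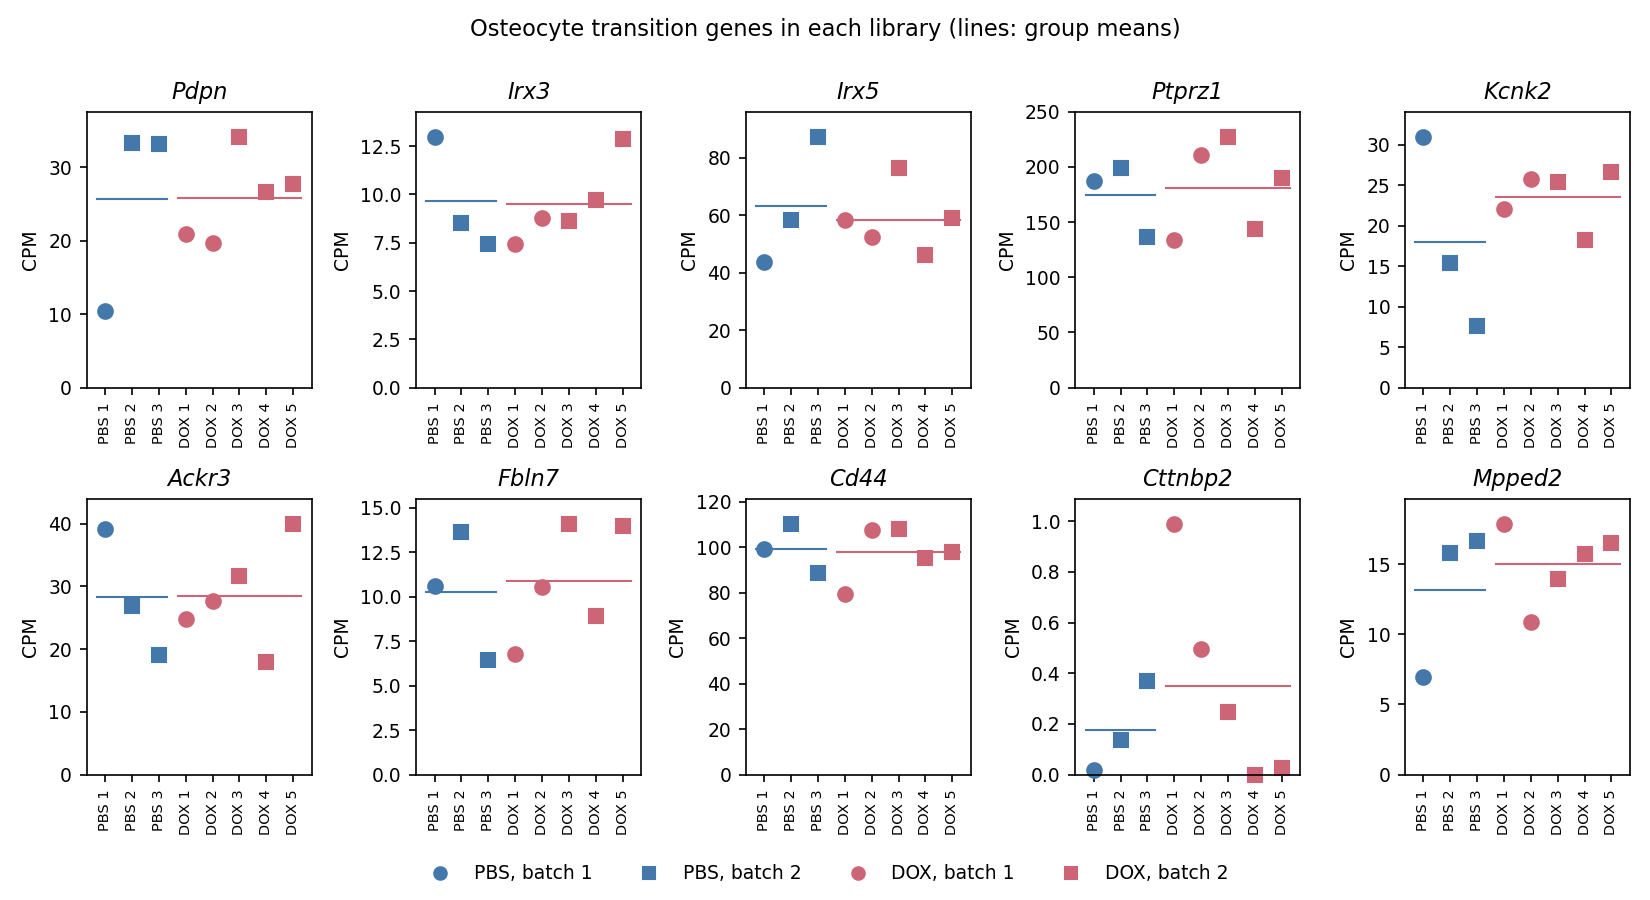
CPM of each member in each library on linear axes that start at 0, with blue for PBS, red for DOX, circles for batch 1, squares for batch 2 and lines for group means. The groups overlap in every panel, and PBS replicate 1 lies lowest for Pdpn, Irx5 and Mpped2 and highest for Kcnk2 and Irx3.

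Pdpn encodes podoplanin, a mucin-like membrane protein that links to the actin cytoskeleton through ezrin and moesin and is needed for dendrites to lengthen. It stood at 10.5, 33.2 and 33.2 CPM in PBS replicates 1 to 3 and at 21.0, 19.7, 34.2, 26.7 and 27.8 CPM in DOX replicates 1 to 5. PBS replicate 1 was the lowest library, and the other PBS libraries lay near the top, so the DOX values sat inside the PBS range except for DOX replicate 3. DOX libraries averaged 25.9 ± 5.81 CPM (SD, n = 5), and PBS libraries 25.6 ± 13.1 CPM (SD, n = 3). The log2 fold change was 0.20 ± 0.21 (SE), with a 95% interval from -0.28 to 0.67 (adjusted p = 0.995). Without PBS replicate 1 it was -0.16.

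Cd44, the surface receptor for hyaluronan that also binds osteopontin, was the steadiest member. Its levels were 99.3, 110 and 88.7 CPM in the PBS libraries and 79.5, 108, 108, 95.3 and 97.8 CPM in the DOX libraries. DOX replicate 1 alone fell below the PBS range. Its coefficient of variation over the 8 libraries was 10.8%, against 20.2% to 34.8% for the other members apart from Cttnbp2. The log2 fold change of -0.02 ± 0.14 (SE) had the narrowest interval of the set, from -0.33 to 0.28 (adjusted p = 0.995).

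Ptprz1 encodes a receptor tyrosine phosphatase whose ligands include pleiotrophin and midkine, both known in bone. PBS libraries held 187, 199 and 136 CPM, and DOX libraries held 134, 211, 227, 143 and 190 CPM. A pair of DOX libraries lay above all PBS libraries and DOX replicate 1 lay below them. The difference was 0.06 ± 0.21 (SE) on the log2 scale, with an interval from -0.40 to 0.52.

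Ackr3, also called CXCR7, takes up CXCL12 and other ligands without coupling to G proteins. Levels in PBS were 39.2, 26.9 and 19.1 CPM. In DOX they were 24.9, 27.7, 31.7, 17.9 and 40.0 CPM, which spans the PBS range with 1 library above it and 1 below. The log2 fold change was 0.02 ± 0.27 (SE), with an interval from -0.59 to 0.62. Cxcl12 itself, the ligand gene, stood at 606, 142 and 73.2 CPM in PBS and at 383, 343, 91.2, 363 and 265 CPM in DOX.

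Kcnk2 had the largest difference of the set among members with more than a few reads. It encodes TREK-1, a tandem-pore potassium channel opened by membrane stretch. The PBS libraries held 31.0, 15.4 and 7.56 CPM, a 4.10-fold span, and the DOX libraries 22.0, 25.8, 25.3, 18.2 and 26.6 CPM, a 1.46-fold span. PBS replicate 1 was the highest library of all and PBS replicates 2 and 3 the lowest, so DOX lay between the PBS values. The DOX mean was 23.6 ± 3.49 CPM (SD, n = 5) and the PBS mean 18.0 ± 11.9 CPM (SD, n = 3). The log2 fold change was 0.48 ± 0.31 (SE), with an interval from -0.22 to 1.18 (adjusted p = 0.995).

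The size of the Kcnk2 difference followed the control libraries. Without PBS replicate 1 the log2 fold change was 1.03 ± 0.29 (SE), with an unadjusted p of 0.00589 and an adjusted p of 0.701 in edgeR. Without PBS replicate 3 it was 0.10. Without DOX replicate 1 it was 0.64, and with DOX replicate 1 counted as PBS 0.65. With both that library and PBS replicate 1 left out, edgeR gave 1.03 (adjusted p = 0.324). Without PBS replicate 1, batch 1 has no control, so both fits that lack it rest on the batch 2 contrast alone. Limma-voom, which weights libraries by quality, gave 0.75 (unadjusted p = 0.0217, adjusted p = 0.49).

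Irx3 and Irx5 are Iroquois homeobox genes that neighbour each other on their chromosome and encode related transcription factors. Irx3 stood at 13.0, 8.51 and 7.45 CPM in PBS and at 7.44, 8.76, 8.62, 9.72 and 12.9 CPM in DOX. Irx5 stood at 43.8, 58.3 and 87.4 CPM in PBS and at 58.3, 52.4, 76.5, 46.1 and 59.0 CPM in DOX. In the controls the genes ran in opposite order, with Irx3 highest and Irx5 lowest in PBS replicate 1 and the reverse in PBS replicate 3. Irx3 counts were therefore 0.297 of Irx5 counts in PBS replicate 1 and 0.0852 in PBS replicate 3, a ratio not scaled for length. The DOX libraries ran from 0.113 to 0.218, inside that range. The DOX ratio averaged 0.167 ± 0.0476 (SD, n = 5) and the PBS ratio 0.176 ± 0.109 (SD, n = 3). The log2 fold changes were -0.02 ± 0.24 (SE) for Irx3 and -0.06 ± 0.21 for Irx5, with intervals from -0.56 to 0.51 and from -0.52 to 0.40.

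Fbln7 encodes fibulin-7, an adhesive matrix glycoprotein known from teeth. It stood at 10.6, 13.6 and 6.46 CPM in PBS and at 6.79, 10.5, 14.1, 8.91 and 14.0 CPM in DOX. The groups overlapped across nearly their whole range. The log2 fold change was 0.08 ± 0.28 (SE), with an interval from -0.56 to 0.71.

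Mpped2 encodes a metallophosphoesterase that hydrolyses cyclic nucleotides. PBS libraries held 6.93, 15.8 and 16.7 CPM and DOX libraries 17.9, 10.9, 13.9, 15.8 and 16.5 CPM. As for Pdpn, PBS replicate 1 was the lowest library by a wide margin. The log2 fold change was 0.30 ± 0.25 (SE), with an interval from -0.26 to 0.85, and without PBS replicate 1 it was -0.06.

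Cttnbp2, which in neurons ties cortactin to dendritic spines, was close to the limit of detection. It had 1, 5 and 13 counts in the PBS libraries and 49, 20, 10, 0 and 1 counts in the DOX libraries. The 0 in DOX replicate 4 allows up to 0.0693 CPM, which is 3 counts. Summed over libraries there were 19 counts in PBS and 80 in DOX, which after scaling gave 2.45 times the PBS level (95% interval 1.47 to 4.28, counting error only). The edgeR fit with batch as a term had the opposite sign, at -0.11 ± 1.43 (SE) on the log2 scale, where the interval ran from -3.29 to 3.07. Libraries of 1 group differed by far more than the counting interval, and DOX replicate 1, whose treatment tag disagrees with its title, held 49 of the 80 DOX counts. Within batch 2 the ratio was 0.351, from 11 counts in DOX and 18 in PBS (interval 0.150 to 0.785), and within batch 1 it was 40.9, from 69 and 1 (interval 7.11 to 1639).

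Read batch by batch, the fitted sign of members differed, though not always beyond error. Batch 2 minus batch 1 was 0.10 ± 0.29 (SE) for Cd44 and 0.27 ± 0.43 for Ptprz1. Within batch 1, where the lone PBS library was assumed to vary like the rest, log2 fold changes were 0.96 ± 0.22 (SE) for Pdpn, 1.06 ± 0.31 for Mpped2 and -0.68 ± 0.29 for Irx3. Within batch 2 they were -0.17 ± 0.15, -0.08 ± 0.22 and 0.38 ± 0.23. Kcnk2 went from -0.37 ± 0.37 to 1.03 ± 0.29 and Ackr3 from -0.57 ± 0.39 to 0.38 ± 0.30. In edgeR 3 of 10 members, Pdpn, Irx3 and Mpped2, had an unadjusted p under 0.05 within batch 1, against 9.37% of all genes, and 1, Kcnk2, within batch 2, against 6.93%. None passed after adjustment, where the smallest values were 0.321 for Pdpn in batch 1 and 0.686 for Kcnk2 in batch 2.

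Within batch 2 the DOX libraries lay above both PBS libraries for 2 of 10 members, Irx3 and Kcnk2, against 16% of all genes. For 0 of 10 members they lay below both, against 15.3% of all genes. For Kcnk2 the batch 2 means were 11.5 CPM in PBS (2 libraries) and 23.4 CPM in DOX (3 libraries). For Irx3 they were 7.98 and 10.4 CPM.

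The difference between batches was itself tested as an interaction. EdgeR called 0 of 10 members and 0 of all genes after adjustment, and 5 of 10 members, Pdpn, Irx3, Kcnk2, Cttnbp2 and Mpped2, had an unadjusted p under 0.05, against 11.7% of all genes. The effect in batch 2 minus that in batch 1 was -1.13 ± 0.27 (SE) for Pdpn (adjusted p = 0.228), -1.13 ± 0.38 for Mpped2 (0.319), 1.40 ± 0.47 for Kcnk2 (0.32) and 1.07 ± 0.37 for Irx3 (0.331). All of these rest on PBS replicate 1, the only control of batch 1, so that library and the batch cannot be told apart. The fitted value for Cttnbp2 depends on a control with 1 count and is not given.

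**Figure D3:**
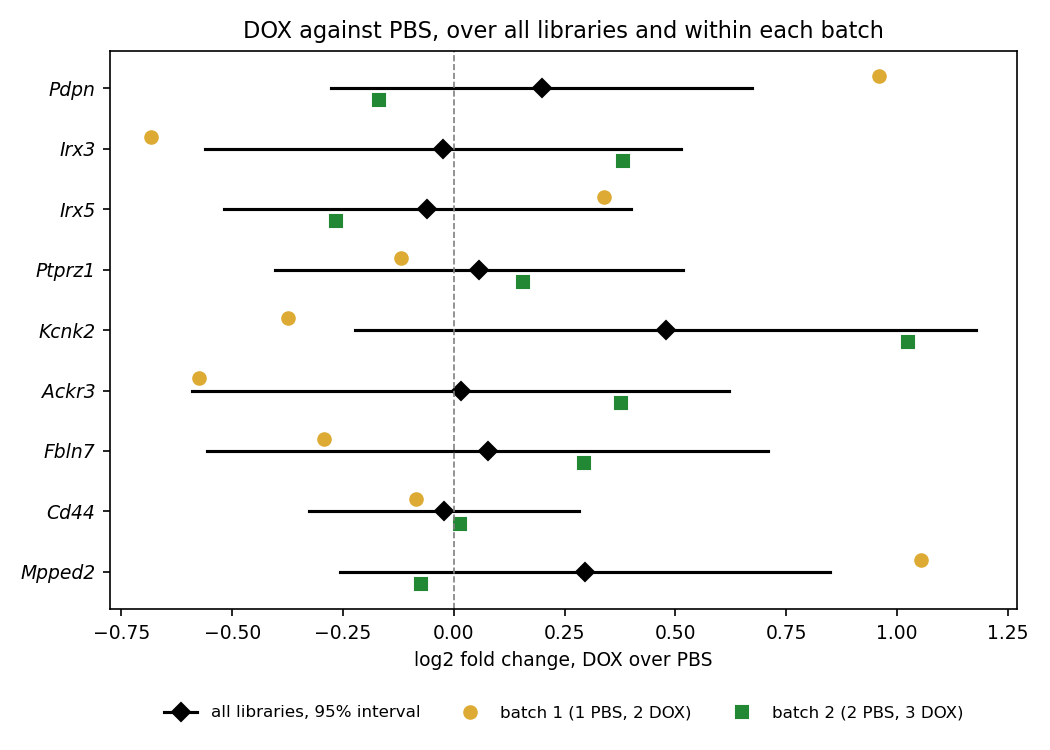
Log2 fold change of DOX over PBS for 9 members, over all libraries with a 95% interval (black), within batch 1 (yellow) and within batch 2 (green); Cttnbp2 is left out because of its few counts. Every black interval spans 0. The batch values lie on opposite sides of 0 for all 9, for Cd44 and Ptprz1 by less than the SE of the difference. All batch 1 values share 1 control, and the share of all genes with opposite signs was not computed.

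Spread among controls exceeded that among treated libraries for several members. Leaving out Cttnbp2, the median ratio of the highest to the lowest library was 2.05 in PBS (3 libraries) and 1.70 in DOX (5 libraries), against 1.58 and 1.72 over all genes tested. The PBS span was 4.10-fold for Kcnk2, 3.18-fold for Pdpn and 2.40-fold for Mpped2, and 1.25-fold for Cd44. The summed level of the 10 members was 441, 481 and 403 CPM in PBS and 373, 475, 540, 382 and 484 CPM in DOX.

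Levels of the members followed different library orders. Ptprz1, Cd44 and Fbln7 ran together across the 8 libraries, with Pearson's r of 0.89 between Ptprz1 and Cd44, 0.89 between Ptprz1 and Fbln7 and 0.84 between Fbln7 and Cd44. Kcnk2 and Ackr3 had an r of 0.74, Pdpn and Irx5 of 0.70. Pdpn and Mpped2 had an r of 0.83 but a Spearman's rho of 0.33, since PBS replicate 1 lay far below the rest for both. Irx3 and Irx5 ran against each other (r = -0.57), as did Irx5 and Kcnk2 (r = -0.61) and Irx3 and Cttnbp2 (r = -0.81). The 8 libraries share batch and scaling, so these values are a description.

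**Figure D4:**
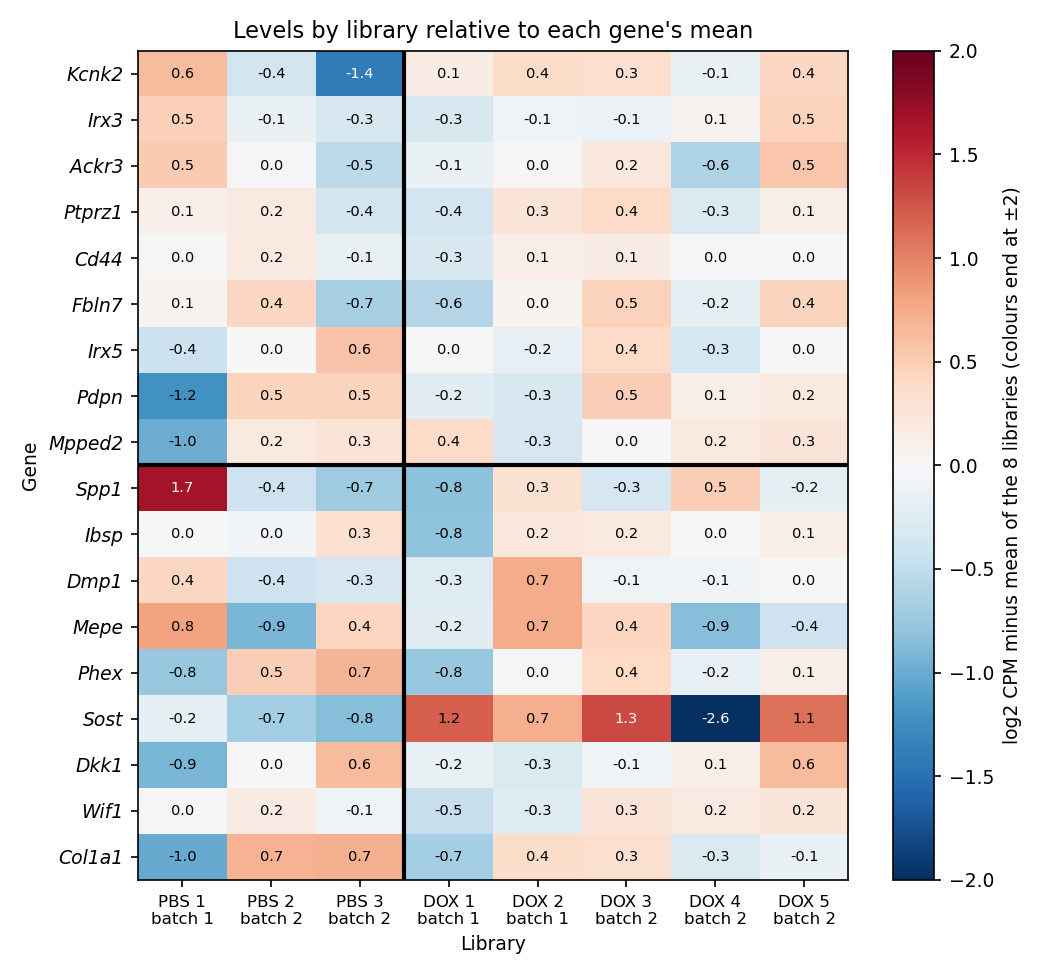
Log2 CPM of 9 members (above the line) and of SIBLING, Wnt antagonist and collagen genes (below it) in each library, minus the gene's mean over the 8 libraries, with red above and blue below the mean and colours that end at 2 in either direction. PBS replicate 1 is red for Kcnk2, Irx3, Ackr3 and Spp1 and blue for Pdpn, Mpped2 and Col1a1, and PBS replicate 3 is the bluest library for Kcnk2.

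Genes most like each member, by Pearson's r of log2 CPM over the 8 libraries among 7772 well-expressed genes, were found for all 10. For Pdpn they were Bgn (biglycan, a matrix proteoglycan; r = 0.99), Pycr1 and Plpp5. For Kcnk2 they were Tmem86a (0.98), Plscr4 and Col8a1 (a short-chain collagen), and for Ackr3 Scube1 (0.94), Ptgr2 and Tpbg. Irx3 ran closest to Comp (a cartilage and tendon matrix protein; 0.95), Spr and Ruvbl1, and Irx5 to Ppp1r7 (0.96), Dnajc21 and Tmcc3. Ptprz1 ran closest to Pml (0.95), Leng1 and Vldlr, Cd44 to Kat7 (0.96), Sf3b3 and Abhd13, and Fbln7 to Rad50 (0.98), Rrp1b and Exoc4. The nearest genes were Slc30a6 (0.99), Gpr180 and Smim14 for Mpped2 and Rnf216 (0.94), Pcnp and Trim39 for Cttnbp2. No gene stood in the lists of more than 1 member. Spearman's rho was lower for some pairs, at 0.79 for Slc30a6 and 0.69 for Smim14 with Mpped2. The r values are the highest of many candidates over 8 libraries and carry no test.

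Neighbouring osteocyte genes were read from the same fit. Of the SIBLING genes and Phex, 5 of 6 were tested, and 1 had a positive and 4 a negative fold change, with a median of -0.16. In edgeR 0 had an unadjusted p under 0.05, against 3.71% of all genes. Dmp1, a matrix protein of early osteocytes, stood at 897, 500 and 533 CPM in PBS and at 559, 1121, 629, 644 and 667 CPM in DOX, with a log2 fold change of 0.17 ± 0.21 (SE). Spp1, which encodes the CD44 ligand osteopontin, stood at 22137 CPM in PBS replicate 1 and between 3945 and 9897 CPM elsewhere. Ibsp, bone sialoprotein, had a value of -0.10 ± 0.22 (SE).

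Secreted Wnt antagonists gave 8 tested genes of 10, with 3 positive and 5 negative values and a median of -0.04. In edgeR 0 of them had an unadjusted p under 0.05, against 3.71% of all genes. DESeq2 listed 2 of them, against 4.79% of all genes. Without PBS replicate 1 the median was 0.045. Sost, the mature osteocyte marker, stood at 1.60, 1.12 and 0.991 CPM in PBS and at 4.22, 3.05, 4.60, 0.254 and 3.96 CPM in DOX. DOX replicate 4 held the lowest value of all libraries while the other 4 DOX libraries lay above every PBS library. Its log2 fold change was 1.37 ± 0.69 (SE; adjusted p = 0.995). Wif1, the most abundant of the list, had a value of -0.0019 ± 0.14, and Sfrp2 of -0.82 ± 0.38.

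Of 17 other osteocyte genes 14 were tested, with 4 positive and 10 negative values, a median of -0.16, and 1 at an unadjusted p under 0.05 against 3.71% of all genes. Slc20a2, a phosphate carrier, was that gene, with a log2 fold change of -0.54 ± 0.18 (SE; adjusted p = 0.995). Gja1, which encodes the connexin of osteocyte gap junctions, had -0.14 ± 0.20, and Dstn, an actin-severing protein of osteocyte dendrites, had 0.17 ± 0.12. Without PBS replicate 1 the median turned to 0.13. No gene of these 3 lists was called by edgeR, DESeq2 or limma-voom.

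Partners and family members of the 10 genes gave 48 tested of 62, with 19 positive and 29 negative values, a median of -0.08 and 0 called by any of the 3 tools. Without PBS replicate 1 the balance turned, to 26 of 48 positive and a median of 0.018. At an unadjusted p under 0.05 the shares of all genes were 3.71% in edgeR, 10.2% in limma-voom and 4.79% in DESeq2. Of the 48 genes here, 1 passed that limit in edgeR, 4 in limma-voom and 1 in DESeq2. That gene in edgeR was Cemip, which encodes a hyaluronan-degrading protein, at 15.6, 18.8 and 27.5 CPM in PBS and 12.0, 11.9, 17.0, 14.4 and 16.7 CPM in DOX (log2 fold change -0.48 ± 0.15, SE; adjusted p = 0.995). All 7 tested genes of the hyaluronan and Cd44 list had negative values, with a median of -0.17. Without PBS replicate 1, 4 of the 7 were positive. Cemip2, another hyaluronan-degrading protein, had -0.28 ± 0.18.

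Among podoplanin partners, 4 of 7 were positive, and Ezr, the ezrin gene, had -0.26 ± 0.17, Rhoa 0.13 ± 0.11 and Cd9 0.03 ± 0.17. Of the other Iroquois genes only Irx2 and Irx6 were tested, at a mean below 1 CPM in each group, with 0.48 ± 0.59 and 0.68 ± 0.72. For Ptprz1 ligands and partners, 1 of 4 was positive. Tnc, tenascin-C, had -0.30 ± 0.25 and Nrcam, a cell adhesion molecule, 0.56 ± 0.38. Of the other K2P channels 3 were tested and 1 was positive, with Kcnk1 at 0.25 ± 0.26 and Kcnk10, which encodes the related channel TREK-2, at -0.85 ± 0.49.

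For ligands and partners of Ackr3, 3 of 8 were positive, with Cxcl12 at 0.41 ± 0.49, the kinase gene Grk2 at -0.17 ± 0.13 and the arrestin gene Arrb2 at -0.49 ± 0.34. Fibulins had 4 of 6 positive. Fbln5 had 0.39 ± 0.39, Efemp1 0.46 ± 1.15 and Efemp2, the most abundant, 0.03 ± 0.14. Genes of the STRIPAK complex and cortactin, which relate to Cttnbp2, had 4 of 11 positive, with Cttnbp2nl at 0.24 ± 0.18, Stk25 at 0.21 ± 0.16 and Strn3 at -0.04 ± 0.11.

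Several members are also markers of other cells, so those cells' markers were summed. Cd44 is found on most leukocytes. The 10 leukocyte markers together reached 10.9 to 17.1 CPM in PBS and 6.70 to 22.7 CPM in DOX, and Ptprc, which encodes the pan-leukocyte antigen CD45, at most 1.55 CPM, with 0 counts in DOX replicate 2. Pdpn marks lymphatic endothelium, whose 4 markers analysed here summed to 0.906 to 1.78 CPM in PBS and 0.263 to 6.23 CPM in DOX. Ptprz1 is known from glia, and the 3 Schwann cell and glial markers analysed here summed to 3.00 to 20.1 CPM in PBS and 5.19 to 10.2 CPM in DOX. The part of such cells in the levels of these members was not tested.

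Markers of stromal cells also varied between libraries. The 7 reticular stromal markers, Cxcl12 among them, summed to 946, 294 and 165 CPM in PBS and to 597, 568, 211, 562 and 431 CPM in DOX, and like Kcnk2 were highest in PBS replicate 1 and lowest in PBS replicate 3. In DOX replicate 3 the reticular sum was the lowest of the DOX libraries and Kcnk2 stood at 25.3 CPM. The fibroblast and tendon markers summed to 392, 50.4 and 78.2 CPM in PBS and to between 93.6 and 248 CPM in DOX. Of its 7 genes tested, 5 had a positive and 2 a negative fold change. Thbs4, the most abundant, had 0.0023 ± 0.68 (SE). The tendon genes Tnmd and Kera, higher in DOX, had an unadjusted p under 0.05 in edgeR, against 3.71% of all genes. DESeq2 called both, against 0.117% of all genes, and edgeR called neither (adjusted p = 0.995 for each). Tnmd stood at 2.99, 5.84 and 3.23 CPM in PBS and at 20.5, 10.0, 8.37, 17.3 and 7.10 CPM in DOX. Kera stood at 0, 0.0818 and 0 CPM in PBS and at 2.87, 3.10, 0.935, 3.28 and 1.33 CPM in DOX. The share of type I collagen was 19.1%, 39.5% and 38.7% in PBS and 23.2%, 35.5%, 33.6%, 26.0% and 28.0% in DOX. That share was lowest in PBS replicate 1, where Kcnk2 was highest, at 31.0 CPM. It was highest in PBS replicates 2 and 3, where Kcnk2 was lowest, at 15.4 and 7.56 CPM. Among the DOX libraries it was highest in DOX replicates 2 and 3, with Kcnk2 at 25.8 and 25.3 CPM. It was lowest there in DOX replicates 1 and 4, where Kcnk2 was also lowest among DOX libraries, at 22.0 and 18.2 CPM. The part of these cells in the Kcnk2 values was not tested.

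Osteoblast markers summed to 168350 to 518240 CPM in PBS and 211580 to 407390 CPM in DOX. The other marker sums were those of blood endothelium (1.53 to 19.1 CPM in PBS, 1.72 to 16.3 CPM in DOX), osteoclasts (278 to 360 and 334 to 428 CPM), chondrocytes (2776 to 7184 and 1955 to 5677 CPM), red cells (3.76 to 143 and 2.32 to 103 CPM) and muscle (15.2 to 28.1 and 14.8 to 30.8 CPM). The chondrocyte sum was mostly Col2a1, at 2116, 6821 and 7056 CPM in PBS replicates 1 to 3. The other chondrocyte markers were highest in PBS replicate 1 among the controls, with Comp at 564, 208 and 107 CPM. Ctsk made up most of the osteoclast sum. All 6 red cell markers had a negative fold change, with a median of -0.96, and without PBS replicate 1, 2 were positive. Of these 6, 1 had an unadjusted p under 0.05 in edgeR, against 3.71% of all genes, and 2 in DESeq2, against 4.79%.

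Reads of overlapping genes could add to a member. By RefSeq, A430027H14Rik and the pseudogene Pdcd5-ps overlap Kcnk2, with 90 and 734 counts over all libraries, against 7528 for Kcnk2. Crnde, a noncoding RNA gene beside Irx3 and Irx5, had 2131 counts and Irx3os 283, against 3292 for Irx3 and 20098 for Irx5. The kit does not mark strand.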

How the data were processed

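Sorted GFP-positive osteoblasts of 3 PBS and 5 DOX libraries were profiled by RNA-seq with SMART-Seq v4 Plus, which amplifies full-length cDNA by PCR, per the labels' protocols. The authors deposited raw read counts per gene symbol, 1 column per library. Per the submitters' processing notes, reads passed through featureCounts 2.0.1, STAR 2.7.9a, Trim Galore 0.6.6, SAMtools 1.17, MultiQC 1.7 and FastQC 0.11.5, named without an order, on build GRCm39. Not given in the sources used here were annotation, strand setting and treatment of multi-mapped reads. No gene had a total under 10 counts in the table.

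Counts were fitted in R 4.3.3 with edgeR 4.0.16 (quasi-likelihood test, TMM scaling, filterByExpr, batch and group as terms, two-sided). P-values were adjusted by Benjamini-Hochberg over all 15373 genes tested, with a threshold of 0.05. Standard errors are the log2 fold change divided by the square root of F. CPM uses TMM-adjusted library sizes, and log2 CPM a prior count of 2. Within-batch values come from a fit with a term for group in each batch. DESeq2 1.42.0, limma 3.58.1 (voom with quality weights), other filters and scalings, left-out libraries and the replicate number as a block were alternatives. The fits were tested on simulated data. Plots used Python 3.11.15 and matplotlib 3.10.9.

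The members, gene lists and tests were chosen with earlier results of these data known. All members are named. Of each other osteocyte, partner and family list the genes named are the most abundant and the 2 of smallest p. The same holds for the fibroblast and tendon markers. The remaining cell type markers are given mainly as sums. Bglap, Ptprc and the details on chondrocyte, osteoclast and red cell markers were added after their values were seen. The 3 most similar genes of each member had a mean of at least 3 log2 CPM and a standard symbol. Groups come from sample titles, which call the libraries biological replicates. Without molecular identifiers, the intervals on the Cttnbp2 ratios and the floor cover counting error only. Intervals on log2 fold changes come from the edgeR fit and take in the spread between libraries.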

Additional observations from a re-analysis of the deposited data

Results flagged for a closer look

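No member had a DOX library far from the other 4 by Dixon's rule for groups of 5, and among the 39 genes checked, members and named genes of their lists, 4 did. Chance flags about 1 in 20 groups. Ibsp stood at 6670 CPM in DOX replicate 1, against 11606 to 13431 CPM in the other DOX libraries. Dmp1 stood at 1121 CPM in DOX replicate 2, against 559 to 667 CPM. Kcnk10 stood at 2.93 CPM in DOX replicate 2, against 0.346 to 0.889 CPM. Grk2 stood at 21.6 CPM in DOX replicate 1, against 15.8 to 17.1 CPM.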

How the results depend on the processing

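Calls among the members, the SIBLING, Wnt antagonist and other osteocyte lists and the partner and family genes were 0 under each alternative that gave a test. The lists of cell type markers were not recomputed under every alternative, and DESeq2 called Tnmd and Kera among them. Directions changed more often, and 6 of the 10 log2 fold changes lay within 0.1 of 0. Limma-voom turned Pdpn to -0.041, Irx3 to 0.20 and Cttnbp2 to 0.40. Batch 2 alone turned Pdpn to -0.16, Irx3 to 0.39, Cd44 to 0.018 and Mpped2 to -0.069. Leaving out both PBS replicate 1 and DOX replicate 1 gave -0.17, 0.39, 0.016 and -0.071. That fit has no control in batch 1, so it repeats the batch 2 contrast and is no separate check. Counting DOX replicate 1 as PBS gave 0.17 for Irx3, 0.10 for Cd44 and -0.12 for Mpped2. In batch 1 alone, the difference of mean log2 CPM, with no test, was 0.34 for Irx5, -0.15 for Ptprz1, -0.38 for Kcnk2, -0.58 for Ackr3, -0.32 for Fbln7 and 3.51 for Cttnbp2. Cttnbp2 was 1.03 with no batch term. With the replicate block, Irx5 was 0.022 and Cttnbp2 1.98, and no call changed. After each gene's group mean was taken off, log2 CPM of same-numbered PBS and DOX libraries had correlations of 0.25, -0.05 and 0.24 across genes. Other pairs ran from -0.33 to 0.18. The libraries numbered 1 shared a batch, as did those numbered 3, so number and batch cannot be told apart there. Whether the numbers mark a pairing was not tested. Leaving out 1 library at a time gave ranges of -0.16 to 0.31 for Pdpn, -0.21 to 0.39 for Irx3, -0.26 to 0.18 for Irx5, -0.11 to 0.17 for Ptprz1, 0.10 to 1.03 for Kcnk2, -0.21 to 0.38 for Ackr3, -0.22 to 0.30 for Fbln7, -0.12 to 0.051 for Cd44, -1.46 to 1.19 for Cttnbp2 and -0.065 to 0.43 for Mpped2. The ends of each range came from leaving out a PBS library. Cttnbp2 fell under the filter on low counts in 5 of 19 alternatives. Depth limits Cttnbp2 alone among the members, since the others had at least 228 counts in every library. The cause of these changes was not tested.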
